A study of Mus musculus with 18 samples.

Results

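The Schlafen genes are a family of vertebrate genes that form a tight cluster in the mouse genome. The 7 members Slfn1, Slfn2, Slfn3, Slfn4, Slfn5, Slfn8 and Slfn9 were taken by symbol from 36528 entries of an RNA sequencing table. The choice of these members was made with earlier results of these data known. Of these, 6 had an nRPKM (a read count normalized for gene length and library) of at least 1 in at least 3 libraries and entered the test, which covered 13075 genes in all. Slfn4 stayed below that level in every library and was described by its values alone. The libraries came from splenic CD4 T cells of NZB/W F1 mice, females aged 21 to 27 weeks whose proteinuria was 30 to 100 mg/dL. This hybrid strain spontaneously develops a disease resembling lupus. All cells were cultured for 48 hours with IL-2 at 10 U/mL and received 25 µg/mL of antibody, either anti-Ox40 or, as a control of the same IgG1 isotype, control Ig. Beads carrying antibodies to CD3 and CD28, which stimulate the T cell receptor and a costimulatory receptor, were left out (0 per cell, no beads) or added at 0.1 per cell (low beads) or at 1 per cell (high beads). The 18 libraries thus formed 6 groups of 3: anti-Ox40 and control Ig, each at no, low and high beads. Ox40 is a costimulatory receptor of the TNF receptor family on activated T cells. The labels do not say whether the 3 libraries of a group came from separate mice or cultures, so the p-values weigh differences against a spread between libraries that may be technical only.

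Schlafen proteins share a conserved N-terminal core that can bind RNA, and the mouse members are sorted by size. Slfn1 and Slfn2 encode the short proteins, Slfn3 and Slfn4 those of intermediate size, and Slfn5, Slfn8 and Slfn9 the long ones, which carry a helicase-like domain. Several members are known as interferon-induced genes, and the family was first described through genes whose RNA changes during T cell development and activation. Mice with a mutated Slfn2 have T cells that do not keep quiescence, the resting state of naive lymphocytes.

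Depth differed between libraries: a gene of 1 kb at 1 nRPKM had 26.4 to 46.0 reads. The T cell genes Cd3e and Cd4 were at 159 to 262 and 174 to 326 nRPKM over the 18 libraries, which goes with the label of CD4 T cells. The 2 markers of CD8 T cells differed. Cd8a stayed at or below 0.433 nRPKM, while Cd8a and Cd8b1 summed to 4.36 to 6.95, most of it from Cd8b1. Whether some CD8 T cells were present was not tested. Summed nRPKM of 13 myeloid markers ranged over 374 to 490 in the 6 unstimulated libraries, 113 to 140 with low beads and 38.2 to 53.5 with high beads. The 8 NK cell markers summed to 52.1 to 66.2 in unstimulated libraries, 31.0 to 44.0 with low beads and 56.8 to 124 with high beads. They did not move together. Their mean log2(nRPKM + 1) was 2.20 to 2.50 without beads and 1.45 to 1.77 with high beads, and Klrd1 was at 26.0 to 36.4 and 1.20 to 3.47 nRPKM. B cell markers differed between libraries of the same group, with sums of 6.02 to 51.3 at low beads. The difference recurred across groups, as the B cell gene Ms4a1 was highest in replicate 3 of every group. In control Ig replicate 3 was at 6.30 nRPKM with no, 11.9 with low and 1.71 with high beads. Under anti-Ox40 it was at 5.83, 10.6 and 0.51, while no replicate 1 or 2 exceeded 0.746. The labels do not say whether replicates of the same number share a source, and the fit did not block on it. Summed nRPKM of 8 lung epithelium markers differed between groups and between libraries of the same group. It was at most 0.107 in unstimulated libraries, 40.1 to 223 under anti-Ox40 and 0.014 to 26.8 in control Ig with low beads, and 29.6 to 54.8 under anti-Ox40 and 31.6 to 123 in control Ig with high beads. The part of the myeloid, NK cell and lung markers in the results was not tested. A score of the B cell markers was a covariate in an alternative fit of the members. A score of 4 nuclear RNAs (mean log2(nRPKM + 1) of Malat1, Neat1, Meg3 and Xist) ranged over 5.39 to 5.86 in unstimulated libraries, 5.20 to 5.91 with low beads and 4.50 to 4.96 with high beads.

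All 7 members lie within 264 kb of chromosome 11 (GRCm38, chr11:82951349-83215154). In order along the chromosome they are Slfn5, Slfn9, Slfn8, Slfn2, Slfn1, Slfn4 and Slfn3, with Slfn9 and Slfn8 on the minus strand and the others on the plus strand. The copies resemble each other. Of the 50-base words in Slfn8 transcripts, 14.6% also occurred in another Schlafen transcript, most of them in the pseudogene Slfn10-ps. The share was 11.2% for Slfn9, 8.15% for Slfn4, 7.39% for Slfn3, 7.38% for Slfn5, 4.27% for Slfn2 and 0.606% for Slfn1. How the authors assigned reads that match several copies is not given in the sources used here, so the values of Slfn8 and Slfn9 are the least certain of the tested members. For Slfn5, the shared words lie in the antisense transcript Slfn5os, which overlaps 8.84% of its exon bases. The library kit does not mark strand, and reads of the 2 transcripts over that stretch cannot be told apart.

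Because several members are known to respond to interferon, the RefSeq promoters of all 7 (250 bases before to 50 after the start of the listed transcript, which for Slfn5 lies inside the gene's annotated span) were searched for the core of the interferon-stimulated response element, which reads GAAA, any 2 bases and GAAA, on either strand, and 3.44% of 32851 mouse promoters hold it. Among the members, the promoters of Slfn5, Slfn8 and Slfn9 held it, and those of Slfn1, Slfn2, Slfn3 and Slfn4 did not. The promoters of the 3 genes with a match are printed with those of Slfn1 and Slfn2, the most abundant members. Capitals mark that core in Slfn5, Slfn8 and Slfn9, and a match to the NF-kB consensus in Slfn1 and, nearer its 5′ end, in Slfn9.
Slfn5 promoter (GRCm38.p6, chr11:82951852-82952151, plus strand): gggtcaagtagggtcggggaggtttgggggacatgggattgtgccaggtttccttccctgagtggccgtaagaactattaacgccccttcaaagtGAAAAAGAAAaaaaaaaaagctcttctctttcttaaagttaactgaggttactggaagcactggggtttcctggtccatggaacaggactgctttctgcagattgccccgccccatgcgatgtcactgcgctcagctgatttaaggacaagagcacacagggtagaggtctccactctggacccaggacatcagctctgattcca
Slfn8 promoter (GRCm38.p6, chr11:83020761-83021060, minus strand): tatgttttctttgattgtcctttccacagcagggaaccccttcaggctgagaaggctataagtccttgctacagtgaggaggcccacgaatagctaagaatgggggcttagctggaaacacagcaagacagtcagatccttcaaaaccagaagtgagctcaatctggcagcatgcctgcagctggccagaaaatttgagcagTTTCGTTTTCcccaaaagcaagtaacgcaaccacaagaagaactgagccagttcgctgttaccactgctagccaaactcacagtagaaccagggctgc
Slfn9 promoter (GRCm38.p6, chr11:82991781-82992080, minus strand): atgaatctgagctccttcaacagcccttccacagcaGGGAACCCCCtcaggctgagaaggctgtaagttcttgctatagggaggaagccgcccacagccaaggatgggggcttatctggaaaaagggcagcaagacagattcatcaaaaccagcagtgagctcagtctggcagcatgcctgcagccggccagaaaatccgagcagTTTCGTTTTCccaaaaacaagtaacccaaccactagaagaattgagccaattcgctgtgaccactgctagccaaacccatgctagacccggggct
Slfn1 promoter (GRCm38.p6, chr11:83116570-83116869, plus strand): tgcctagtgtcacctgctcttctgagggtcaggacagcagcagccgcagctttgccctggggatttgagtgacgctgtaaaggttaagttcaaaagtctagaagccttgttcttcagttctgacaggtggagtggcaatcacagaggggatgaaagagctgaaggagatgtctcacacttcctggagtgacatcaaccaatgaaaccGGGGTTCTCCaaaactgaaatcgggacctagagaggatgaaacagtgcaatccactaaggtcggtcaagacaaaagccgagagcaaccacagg
Slfn2 promoter (GRCm38.p6, chr11:83064862-83065161, plus strand): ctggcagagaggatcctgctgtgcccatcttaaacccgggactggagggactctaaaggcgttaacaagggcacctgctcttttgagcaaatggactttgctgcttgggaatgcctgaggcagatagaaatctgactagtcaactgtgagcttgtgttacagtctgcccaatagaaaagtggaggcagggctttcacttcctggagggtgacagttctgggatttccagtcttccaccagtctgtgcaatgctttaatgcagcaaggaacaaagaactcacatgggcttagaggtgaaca
In Slfn8 and Slfn9 the match is the same TTTCGTTTTC on the printed strand, beginning at -48 and -45 from the start. In Slfn5 the match is GAAAAAGAAA, beginning at -155 from the start. The NF-kB consensus is held by 8.46% of promoters, and neither match overlaps the interferon core. No promoter of the 7 held TTCNNNGAA, the interferon-gamma-activated GAS element (8.30% of promoters), or the forkhead site TGTTTAC (3.65%). The AP-1 site TGANTCA (7.81%) occurred in Slfn4 alone. A match describes these letters only, and a promoter without one may still be bound.

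Levels differed widely between members, and can be compared since nRPKM is scaled by gene length. Slfn1 and Slfn2 were among the abundant RNAs at 61.1 to 246 and 85.4 to 272 nRPKM over the 18 libraries. Slfn5 and Slfn8 followed at 2.95 to 25.8 and 12.4 to 37.6 nRPKM, then Slfn9 at 4.63 to 8.43 and Slfn3 at 4.09 to 8.44. Slfn4 was at 0.063 to 0.472 nRPKM. Summed over the 7 members, the level under anti-Ox40 was 529 ± 18.5 nRPKM with no, 415 ± 20.3 with low and 196 ± 21.1 with high beads (SD, n = 3 each). In control Ig cultures it was 565 ± 13.3, 457 ± 31.3 and 282 ± 15.9 nRPKM at the same doses (SD, n = 3 each). Slfn1 and Slfn2 together made up between 85.0% and 89.6% of that sum in the 6 group means.

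**Figure D1:**
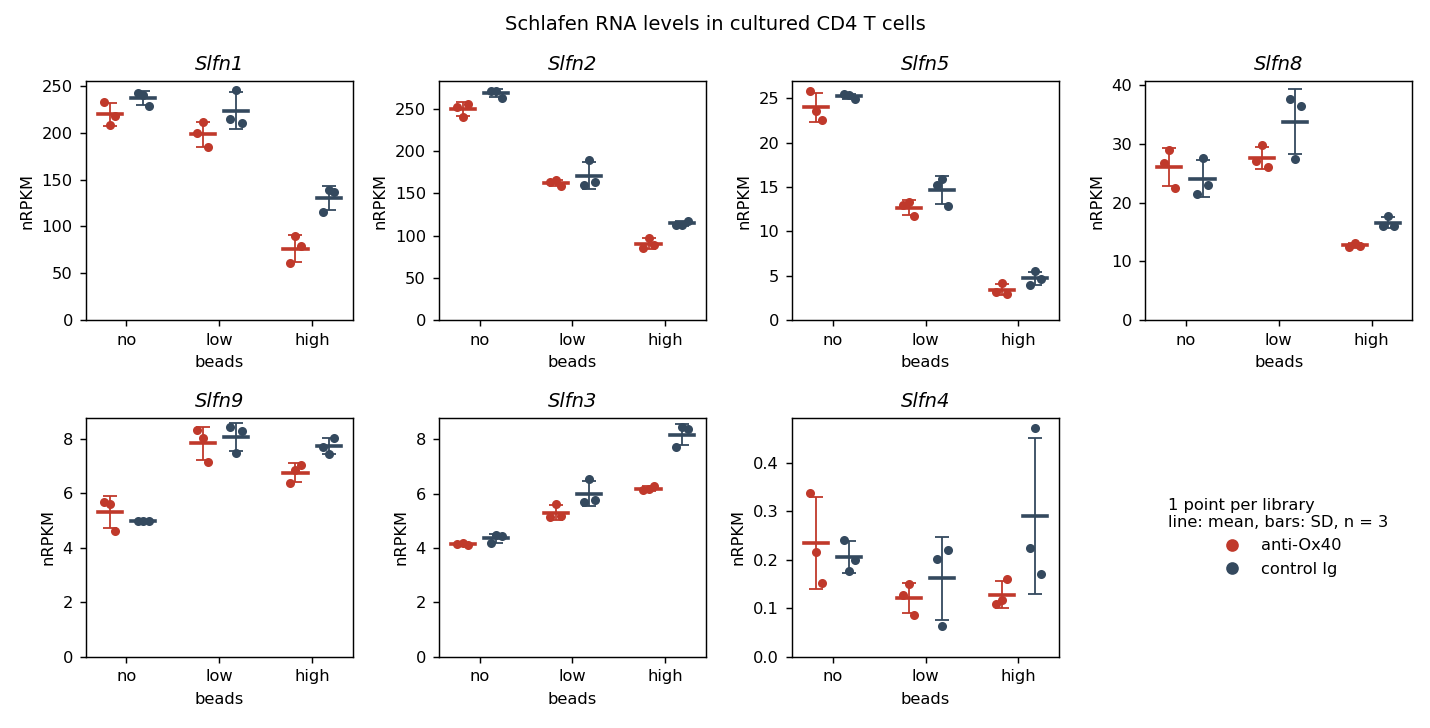
RNA level (nRPKM, linear axis from 0) of the 7 Schlafen genes by bead dose, with anti-Ox40 in red left of control Ig in dark blue; points are libraries, lines are means and bars are SD (n = 3). Slfn1, Slfn2 and Slfn5 are lowest at high beads, Slfn8 is highest at low beads in control Ig, and Slfn3 and Slfn9 are lowest without beads.

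The bead comparisons show how stimulation of CD3 and CD28 moved the family. Values below are nRPKM per library in the order of replicates 1, 2 and 3. Differences are on the log2(nRPKM + 1) scale and carry a standard error (SE), and adjusted p-values come from limma with Benjamini-Hochberg adjustment over 13075 genes. A gene was called at an adjusted p under 0.05. At high against no beads, Slfn1, Slfn2, Slfn5 and Slfn8 fell, and Slfn3 and Slfn9 rose, under both antibodies. All 6 tested members were thus called, where 84.5% of all tested genes were called under anti-Ox40 (45.2% higher, 39.3% lower) and 82.3% in control Ig (43.4% higher, 38.9% lower), so the number of calls alone says nothing about the family. The members' median difference was -1.21 under anti-Ox40 and -0.69 in control Ig, against 0.06 and 0.04 over all tested genes.

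Slfn2, which in mice is needed for T cell quiescence and protects transfer RNAs from cleavage, fell in steps. Under anti-Ox40 it was at 253, 240.5 and 256 nRPKM without beads, 163, 166 and 159 at low beads and 85.4, 97.3 and 89.2 at high beads. In control Ig it was at 271, 272 and 263, then at 160, 190 and 164, then at 113, 113 and 117. The libraries of the 3 doses did not overlap under either antibody. From no to low beads the difference was -0.62 under anti-Ox40 (SE 0.06, adjusted p = 1.56e-07) and -0.65 in control Ig (SE 0.06, adjusted p = 1.23e-07). From low to high beads it was -0.84 under anti-Ox40 (adjusted p = 5.4e-09) and -0.57 in control Ig (adjusted p = 3.69e-07). At high against no beads the level was 0.363 times as high under anti-Ox40 and 0.426 times as high in control Ig.

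Slfn1, which stops the growth of T cells when forced to be expressed, was nearly level from no to low beads. At low beads it was at 199, 211 and 184 nRPKM under anti-Ox40 and at 214, 246 and 210 in control Ig, against 233, 208 and 218 and 243, 240 and 229 without beads, and the doses overlapped under both antibodies. The differences from no to low beads were -0.15 under anti-Ox40 (SE 0.11, adjusted p = 0.238) and -0.09 in control Ig (SE 0.11, adjusted p = 0.495), neither called. The first became a call with libraries rescaled to the same sum (-0.29, adjusted p = 0.0151) or quantile normalized (-0.28, adjusted p = 0.0136). At high beads Slfn1 was at 61.1, 89.3 and 78.7 nRPKM under anti-Ox40 and at 115, 139 and 136 in control Ig, below every library of the lower doses. The difference from low to high beads was -1.38 under anti-Ox40 (adjusted p = 2.03e-08) and -0.78 in control Ig (adjusted p = 1.05e-05). The ratio of Slfn1 to Slfn2 was therefore not constant. Under anti-Ox40 it was 0.879 ± 0.037 with no, 1.22 ± 0.06 with low and 0.839 ± 0.108 with high beads, and 0.883 ± 0.012, 1.31 ± 0.03 and 1.14 ± 0.10 in control Ig (SD, n = 3 each).

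Slfn5, a long interferon-induced member whose human counterpart is known to hold back interferon-stimulated transcription, fell the most of the tested members between no and high beads. It was at 25.8, 23.6 and 22.6 nRPKM without beads, 13.03, 13.3 and 11.7 at low beads and 3.19, 4.14 and 2.95 at high beads under anti-Ox40. In control Ig it was at 25.5, 25.3 and 24.9, then at 15.2, 15.96 and 12.9, then at 3.998, 5.49 and 4.66. No 2 doses overlapped. At high against no beads the difference was -2.51 under anti-Ox40 (SE 0.10, adjusted p = 1.67e-12) and -2.21 in control Ig (SE 0.10, adjusted p = 9.94e-12). The antisense entry Slfn5os moved the same way, at 0.644 to 0.875 nRPKM with high beads and 5.47 to 7.93 without under anti-Ox40 (-2.08, adjusted p = 1.31e-08), and at 1.05 to 2.10 and 5.19 to 7.63 in control Ig (-1.48, adjusted p = 9.93e-07). With the shared exon bases these 2 entries are not independent measurements.

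Slfn8, a long member close in sequence to Slfn9, was highest at low beads in control Ig. There it was at 37.6, 27.4 and 36.4 nRPKM, against 21.5, 27.6 and 23.1 without beads. It rose by 0.47 (SE 0.11, adjusted p = 0.00199), although the groups overlapped through the low-bead replicate 2 and the no-bead replicate 2. Low-bead replicate 2 was also the library of its group with little nuclear RNA, with Malat1 at 173 against 453 and 435 nRPKM. Under anti-Ox40 the low-bead libraries were at 27.1, 29.8 and 26.1 and those without beads at 26.7, 28.9 and 22.5, a difference of 0.09 that was not called (adjusted p = 0.496) and changed sign with libraries rescaled to the same sum (-0.05) or quantile normalized (-0.03). With the nuclear RNA score as a covariate it was 0.28 and was called (adjusted p = 0.00119). At high beads Slfn8 fell below all other libraries, to 12.4, 13.1 and 12.6 nRPKM under anti-Ox40 and to 16.02, 17.7 and 16.04 in control Ig. The difference from low to high beads was -1.06 under anti-Ox40 (adjusted p = 4.96e-07) and -0.97 in control Ig (adjusted p = 1.33e-06). With the nuclear RNA score as a covariate, the difference of high from no beads was -0.21 under anti-Ox40 (adjusted p = 0.172) and -0.03 in control Ig (adjusted p = 0.753). The score itself separates high from no beads, so its part in the fall of Slfn8 cannot be told apart from the bead dose.

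Slfn9 had a different course from its neighbour Slfn8. Under anti-Ox40 it was at 5.69, 5.61 and 4.63 nRPKM without beads, 8.31, 8.03 and 7.17 at low beads and 6.37, 6.87 and 7.04 at high beads. In control Ig it was at 5.001, 4.98 and 5.001, then at 8.43, 7.49 and 8.29, then at 7.71, 7.44 and 8.04. All stimulated libraries lay above all unstimulated ones. From no to low beads it rose by 0.49 under anti-Ox40 (SE 0.07, adjusted p = 1.07e-05) and by 0.60 in control Ig (SE 0.07, adjusted p = 1.78e-06). From low to high beads it fell under anti-Ox40 (-0.19, adjusted p = 0.0233). That call was lost without anti-Ox40 low-bead replicate 1 (adjusted p = 0.0986) or 2 (0.0692), without anti-Ox40 high-bead replicate 1 (adjusted p = 0.0954), and with the nuclear RNA score as a covariate (adjusted p = 0.996). In control Ig the difference of -0.06 was not called (adjusted p = 0.486), became a call with libraries rescaled to the same sum (-0.23, adjusted p = 0.0132) and had the opposite sign with the nuclear RNA covariate (0.13, adjusted p = 0.363). At high against no beads the rise was 0.30 under anti-Ox40 (adjusted p = 0.000698), which with libraries rescaled to the same sum was 0.03 (adjusted p = 0.754), and 0.54 in control Ig (adjusted p = 1.79e-06). The ratio of Slfn8 to Slfn9 was 4.90 ± 0.24 without beads and 1.88 ± 0.08 at high beads under anti-Ox40, and 4.82 ± 0.65 and 2.15 ± 0.20 in control Ig (SD, n = 3 each). The pseudogene Slfn10-ps, which shares sequence with both, was at 6.77 to 9.75 nRPKM over the 18 libraries and was not called in any of the 12 comparisons.

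Slfn3, of the intermediate size class, was the tested member that rose at every step of the bead dose. Under anti-Ox40 it was at 4.14, 4.19 and 4.09 nRPKM without beads, 5.14, 5.61 and 5.16 at low beads and 6.12, 6.16 and 6.28 at high beads. In control Ig it was at 4.18, 4.47 and 4.44, then at 5.70, 6.55 and 5.77, then at 7.72, 8.44 and 8.37. The doses did not overlap under either antibody. At high against no beads the difference was 0.48 under anti-Ox40 (SE 0.05, adjusted p = 2.65e-07) and 0.77 in control Ig (SE 0.05, adjusted p = 8.59e-10). The smaller step from low to high beads under anti-Ox40 (0.19, adjusted p = 0.00452) was 0.04 with libraries rescaled to the same sum (adjusted p = 0.454) and 0.10 with the nuclear RNA covariate (adjusted p = 0.415).

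Slfn4, next to Slfn3 on the chromosome and known from macrophages and other myeloid cells, was detected in every library but too low to enter the test. Under anti-Ox40 it was at 0.337, 0.216 and 0.151 nRPKM without beads, 0.127, 0.149 and 0.087 at low beads and 0.108, 0.116 and 0.160 at high beads. In control Ig it was at 0.240, 0.176 and 0.200, then at 0.201, 0.063 and 0.221, then at 0.224, 0.472 and 0.171. Taking all its annotated exons, these values stand for about 9 to 63 reads. In the order of group means every neighbouring pair overlapped, while at high beads the anti-Ox40 libraries lay below those of control Ig. In a fit with no filter on low values, Slfn4 was not called between the antibodies at high beads (-0.19, adjusted p = 0.158) or at high against no beads (adjusted p = 0.182 under anti-Ox40 and 0.373 in control Ig). Myeloid markers were lower with beads, as given above, and Csf1r was at 0.006 to 0.055 nRPKM at high beads against 5.70 to 7.40 without. The mean of Slfn4 at high beads was 0.545 times that without beads under anti-Ox40 and 1.41 times in control Ig. At such levels the log2(nRPKM + 1) scale shrinks any difference, so the lack of a call says little, and the part of myeloid cells was not tested. In bulk samples, fewer cells of a type and less RNA per cell cannot be told apart.

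**Figure D2:**
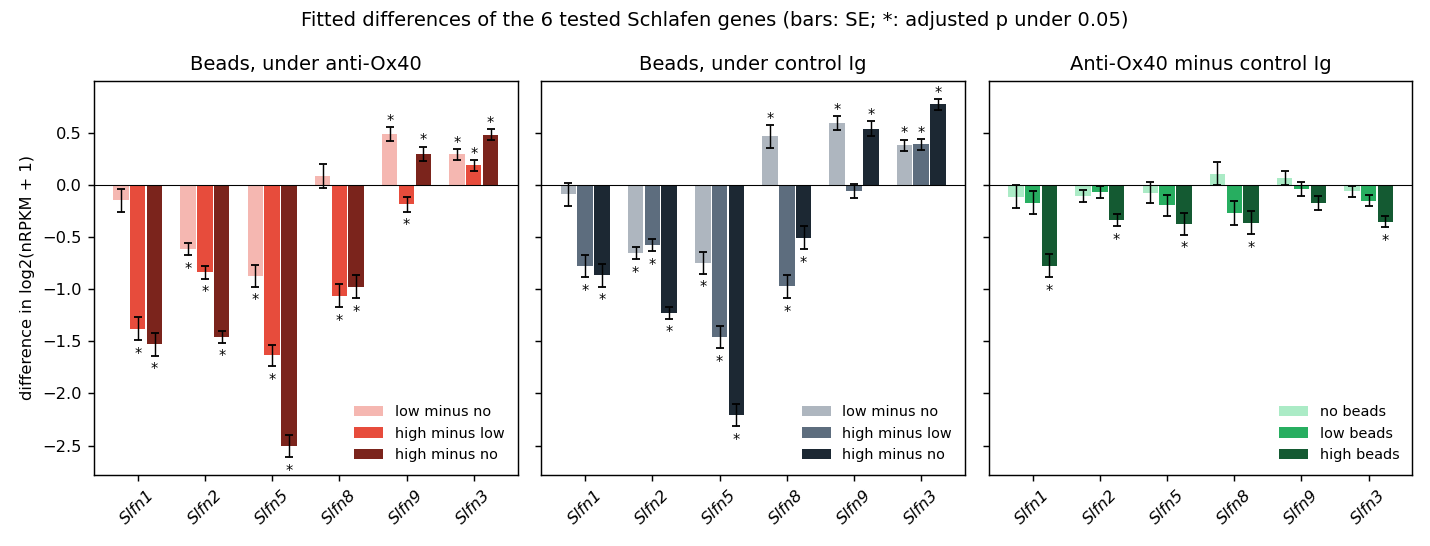
Fitted differences in log2(nRPKM + 1) of the 6 tested Schlafen genes for bead doses under anti-Ox40 (left), bead doses in control Ig (middle) and anti-Ox40 minus control Ig at each bead dose (right); bars on the columns are SE and asterisks mark an adjusted p under 0.05. At high beads the antibody differences of all 6 genes are below 0, from -0.77 for Slfn1 to -0.17 for Slfn9.

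At each single step of the bead dose members moved in both directions. From no to low beads under anti-Ox40, Slfn3 and Slfn9 rose and Slfn2 and Slfn5 fell (4 of 6 called), where 70.8% of all tested genes were called, 37.1% higher and 33.7% lower. In control Ig, Slfn3, Slfn8 and Slfn9 rose and Slfn2 and Slfn5 fell (5 of 6), against 62.3% of all tested genes, 32.6% higher and 29.8% lower. From low to high beads under anti-Ox40, Slfn3 rose and the others fell (6 of 6), against 71.5%, with 40.3% higher and 31.2% lower. In control Ig, Slfn3 rose and Slfn1, Slfn2, Slfn5 and Slfn8 fell (5 of 6), against 72.5%, with 40% higher and 32.5% lower. Both directions were thus common among all genes at every step.

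Anti-Ox40 was then set against control Ig within each bead dose, which asks what Ox40 binding adds to a given stimulation. At high beads Slfn1, Slfn2, Slfn3, Slfn5 and Slfn8 were lower under anti-Ox40, among them Slfn3, which rose with beads. These 5 of 6 tested members compare with 26% of all tested genes called and 11.6% called lower. The members' median was -0.36, against 0.00 over all tested genes. Slfn1 differed most, at 76.4 ± 14.2 nRPKM under anti-Ox40 and 130 ± 12.9 in control Ig (SD, n = 3 each; difference -0.77, SE 0.11, adjusted p = 0.000189). All 3 anti-Ox40 libraries lay below all 3 control Ig libraries for Slfn1, Slfn2, Slfn3, Slfn8 and Slfn9, a separation in that direction that 19.5% of tested genes showed. For Slfn5 the groups overlapped, since anti-Ox40 replicate 2 at 4.14 nRPKM lay above control Ig replicate 1 at 3.998.

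Slfn2 averaged 90.6 ± 6.08 nRPKM under anti-Ox40 and 114 ± 2.68 in control Ig at high beads (difference -0.33, SE 0.06, adjusted p = 0.000841). Slfn3 averaged 6.18 ± 0.08 and 8.17 ± 0.39 nRPKM in the same order (-0.35, SE 0.05, adjusted p = 0.000268). These calls and that of Slfn1 held under all 15 alternatives run. Slfn5, at 3.42 ± 0.63 nRPKM under anti-Ox40 and 4.72 ± 0.75 in control Ig (-0.37, SE 0.10, adjusted p = 0.016), and Slfn8, at 12.7 ± 0.34 and 16.6 ± 0.98 nRPKM (-0.36, SE 0.11, adjusted p = 0.0276), were less firm. Both lost their call without control Ig high-bead replicate 2 (adjusted p = 0.0907 for Slfn5 and 0.105 for Slfn8), without anti-Ox40 high-bead replicate 1 (0.07 and 0.0882) or without replicate 3 (0.0714 and 0.0618). Slfn8 also lost it without control Ig high-bead replicate 3 (adjusted p = 0.0546), with no filter (0.0652) and with quantile normalization (0.0582), and Slfn5 when only the groups compared were fitted (0.0848). The number of called members was 3 in the first 3 of these cases. Slfn9, at 6.76 ± 0.35 nRPKM under anti-Ox40 and 7.73 ± 0.30 in control Ig, was not called (-0.17, adjusted p = 0.0807). Summed T cell markers were also lower under anti-Ox40 at high beads, at 1460 to 1590 nRPKM against 1730 to 1910 in control Ig, as was the nuclear RNA score, at 4.50 to 4.63 against 4.77 to 4.96. With that score as a covariate the differences of Slfn1, Slfn2 and Slfn3 kept their calls, and that of Slfn8 was -0.17 (adjusted p = 0.0677). With the B cell score as a covariate no call was lost, and the differences were -0.78 for Slfn1 (adjusted p = 0.000239) and -0.365 for Slfn8 (adjusted p = 0.0311). The part of the T cell markers was not tested.

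At the lower bead doses no member was called. Without beads, 0 of 6 members passed with limma, where 0.138% of all tested genes did, and none had an unadjusted p under 0.05. The differences lay between -0.11 for Slfn1 and 0.11 for Slfn8, each with adjusted p = 1. The 3 anti-Ox40 libraries of Slfn2 (240.5 to 256 nRPKM) lay below the 3 of control Ig (263 to 272), a separation in that direction that 5.14% of tested genes showed. At low beads, 0 of 6 passed with limma, against 9.59% of all tested genes, although all 6 differences were below 0, from -0.27 for Slfn8 to -0.04 for Slfn9. Slfn3 (adjusted p = 0.0779) and Slfn8 had unadjusted p-values under 0.05, at 0.0116 and 0.0298. At low beads Slfn8 was at 27.1, 29.8 and 26.1 nRPKM under anti-Ox40 and at 37.6, 27.4 and 36.4 in control Ig (adjusted p = 0.128). Without control Ig low-bead replicate 2 its difference was -0.41 (adjusted p = 0.00876), which makes 1 called member. Under other scalings Slfn3 was called with libraries rescaled to the same sum (-0.18, adjusted p = 0.0308) and Slfn2 with quantile normalization (-0.14, adjusted p = 0.0329).

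Whether the antibody effect differed between bead doses was tested as an interaction. Between high and no beads it differed for Slfn1 (-0.66, SE 0.15, adjusted p = 0.0159) and Slfn3 (-0.29, SE 0.07, adjusted p = 0.023), 2 of 6 members against 11.1% of all tested genes. Slfn3 no longer passed without control Ig high-bead replicate 2 (adjusted p = 0.0626) or 3 (0.0628), control Ig no-bead replicate 1 (0.0549) or anti-Ox40 high-bead replicate 1 (0.0602). The 4 others ranged from -0.47 for Slfn8 (adjusted p = 0.0704) to -0.23 for Slfn2 (adjusted p = 0.0893) and did not pass. Between high and low beads Slfn1 alone passed (1 of 6 members, -0.60, SE 0.15, adjusted p = 0.047, against 3.17% of all tested genes), and in 9 of the 12 fits that left out a library it no longer did. Without control Ig low-bead replicate 2, 3 members passed, with Slfn2 (-0.34, adjusted p = 0.00871) and Slfn3 (-0.26, adjusted p = 0.0308) added. Between high and no beads, 4 members passed without anti-Ox40 no-bead replicate 3, with Slfn8 (-0.57, adjusted p = 0.0371) and Slfn9 (-0.32, adjusted p = 0.0312) added. Between low and no beads 0 of 6 passed with limma (0.268% of all tested genes did), and 1 had an unadjusted p under 0.05, Slfn8 at 0.0308. Without control Ig low-bead replicate 2 that difference passed (-0.52, adjusted p = 0.0213). The 2 antibody comparisons in each interaction use different libraries, whereas high against low and high against no beads share the high-bead libraries.

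**Figure D3:**
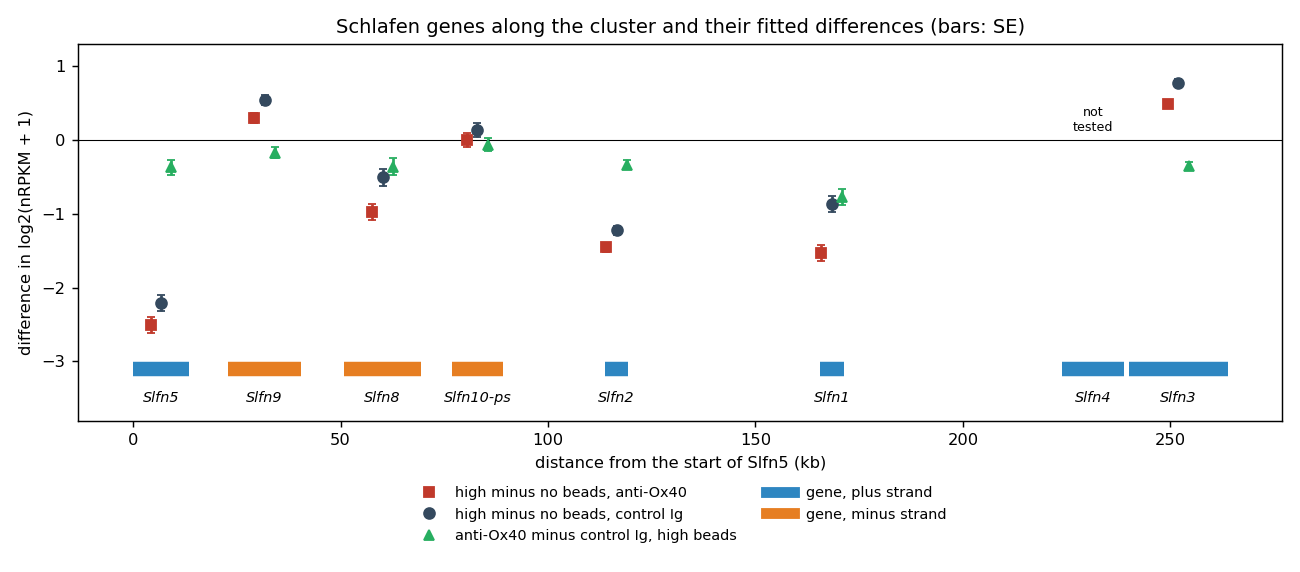
Position of the Schlafen genes along the cluster (horizontal axis, distance from the start of Slfn5 in kb; coloured blocks are genes, blue on the plus and orange on the minus strand) with each gene's fitted difference in log2(nRPKM + 1) and SE. High minus no beads is shown for anti-Ox40 (red squares) and control Ig (dark circles) and anti-Ox40 minus control Ig at high beads as green triangles; genes that rose with beads stand beside genes that fell.

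Position in the cluster did not sort the members by direction. Slfn9, which rose with high beads, stands between Slfn5 and Slfn8, which fell, and Slfn3, which rose, is at the other end, 240 kb from the start of Slfn5. Of 12 tested genes that are not Schlafen genes and lie within 200 kb of the members, 4 rose and 5 fell at high against no beads under anti-Ox40, and 2 rose and 6 fell in control Ig, where of all tested genes 45.2% rose and 39.3% fell under anti-Ox40 and 43.4% rose and 38.9% fell in control Ig. At high beads, 2 of these 12 were higher and 1 was lower under anti-Ox40 than in control Ig, where 26% of all tested genes were called. The entry AI662270, which lies beyond Slfn3, rose by 1.79 under anti-Ox40 (adjusted p = 7.19e-14) and by 1.73 in control Ig (adjusted p = 1.27e-13). This set of neighbours was chosen after the members' values were seen.

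The family was set beside gene lists for interferon response, quiescence and cell cycle entry, which reflect its known links. These lists were also chosen with earlier results of these data known. The interferon list holds genes of the type I interferon response, of which 28 were tested. From no to low beads 18 of them rose and 1 fell under anti-Ox40, and 18 rose and 2 fell in control Ig, with medians of 0.53 and 0.47 against 0.01 over all tested genes in each. Of all tested genes, 37.1% rose and 33.7% fell at this step under anti-Ox40, and 32.6% rose and 29.8% fell in control Ig. In control Ig, Zbp1, a sensor of nucleic acids, rose by 1.63 (adjusted p = 3.67e-08) and Irf9, a transcription factor of the interferon response, by 1.02 (adjusted p = 4.88e-08). Ifit2, an antiviral protein, fell instead (-0.67, adjusted p = 1.7e-08). From low to high beads 4 rose and 18 fell under anti-Ox40, with a median of -0.51 against 0.05 over all tested genes, of which 40.3% rose and 31.2% fell. In control Ig 4 rose and 14 fell, with a median of -0.29 against 0.04 over all tested genes, of which 40% rose and 32.5% fell. Among the Schlafen genes, Slfn8 in control Ig and Slfn9 under anti-Ox40 also rose and then fell, while Slfn5 fell at both steps as Ifit2 did. The groups overlapped in that rise of Slfn8, and the fall of Slfn9 lost its call under 4 of 15 alternatives. At high beads 3 interferon genes were higher and 9 lower under anti-Ox40 than in control Ig (median -0.11 against 0.00 over all tested genes, of which 11.6% were called lower), with Ifit2 (-0.33, adjusted p = 0.000347), Zbp1 (-0.76, adjusted p = 0.000808) and Ifi27l2a (-0.59, adjusted p = 0.00301) lower and Bst2, which tethers virus particles, higher (0.27, adjusted p = 0.00712). Myeloid and B cell RNA also carries interferon-response genes, and its part in these counts was not tested.

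The quiescence list holds 28 tested genes that keep T cells at rest or mark naive cells. At high against no beads 22 fell and 4 rose under anti-Ox40, and 21 fell and 4 rose in control Ig, with medians of -0.98 and -0.78 against 0.06 and 0.04 over all tested genes. Of all tested genes, 39.3% fell and 45.2% rose under anti-Ox40, and 38.9% fell and 43.4% rose in control Ig. The interleukin-7 receptor gene Il7r averaged 40.1 ± 3.97 nRPKM at high beads and 363 ± 37.1 without in control Ig (-3.15, adjusted p = 1.57e-13), and the antiproliferative genes Btg1 (-1.57, adjusted p = 5.55e-14) and Btg2 (-2.27, adjusted p = 7.33e-13) fell with the cell cycle inhibitor Cdkn1b (-1.66, adjusted p = 1.33e-12). At high beads 13 were lower and 3 higher under anti-Ox40 than in control Ig (median -0.16 against 0.00 over all tested genes, of which 11.6% were called lower), including the ubiquitin ligase Cblb (-0.57, adjusted p = 1.81e-06), Foxp1, a forkhead factor of naive T cells (-0.54, adjusted p = 2.77e-05), Dgka, which removes the second messenger diacylglycerol (-0.62, adjusted p = 5.42e-05), and Klf2, a quiescence factor (-1.11, adjusted p = 5.83e-05). Of 25 genes of cell cycle entry, all rose at high against no beads, with medians of 2.44 under anti-Ox40 and 2.74 in control Ig against 0.06 and 0.04 over all tested genes. At high beads 3 of them were higher and 1 lower under anti-Ox40 than in control Ig (median 0.05 against 0.00, with 26% of all tested genes called), with Ccnd2 (0.25, adjusted p = 0.000468) and Myc (0.41, adjusted p = 0.000731) higher and E2f2 (-0.42, adjusted p = 0.000854) lower. At low beads 8 were higher and 0 lower under anti-Ox40 (median 0.22 against 0.00, with 9.59% of all tested genes called). Without beads 2 were higher and 0 lower (median 0.12 against -0.01, with 0.138% called).

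**Figure D4:**
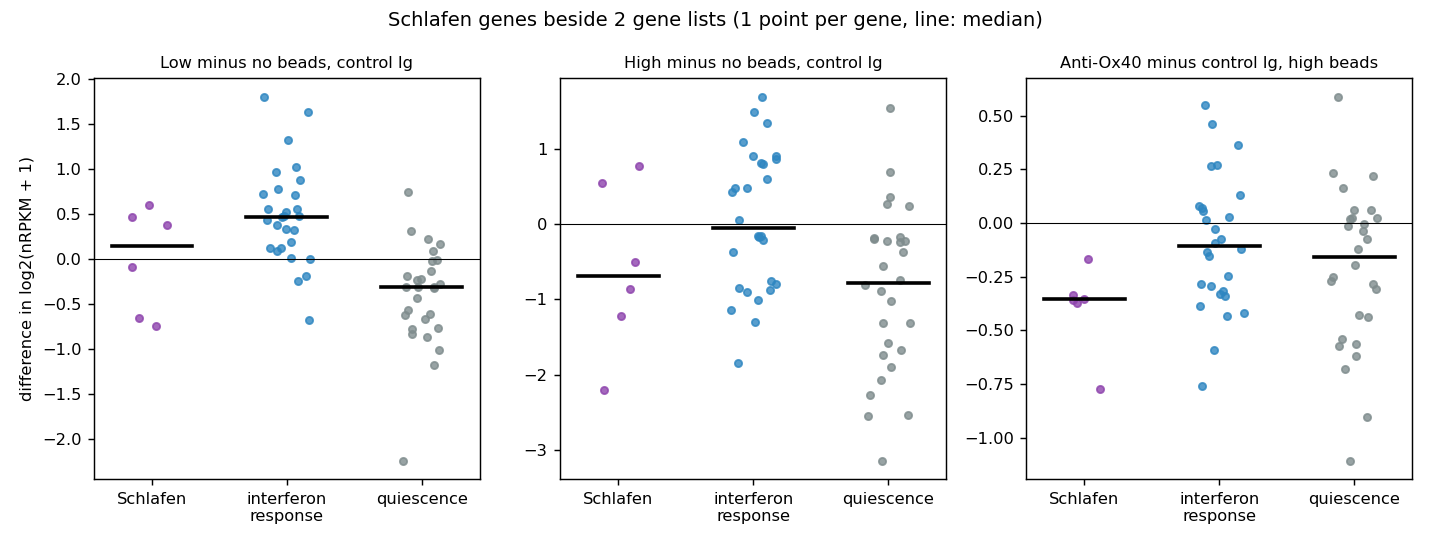
Differences in log2(nRPKM + 1) of the 6 tested Schlafen genes, 28 interferon-response genes and 28 quiescence genes for low minus no beads and high minus no beads in control Ig and for anti-Ox40 minus control Ig at high beads; each point is a gene, black lines are medians, and the vertical scales differ between panels. The Schlafen genes spread over both sides of 0 with beads and lie below 0 in the antibody panel.

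Genes outside the family followed single members closely. These likenesses are Pearson correlations of log2(nRPKM + 1) over the 18 libraries, which share the same 6 groups and the same scaling, so they mostly describe the group means. Slfn5 was most like Tcf7, a transcription factor of naive T cells (0.997), then Ifit2 (0.996) and Pacs1 (0.996). Tcf7 averaged 105 ± 9.94 nRPKM at high beads and 427 ± 11.8 without under anti-Ox40. Slfn2 was most like Frat1 (0.994), Maf1, a repressor of RNA polymerase III (0.993), and Jak1, a kinase of cytokine receptors (0.993). Slfn1 was most like Ctse, a protease (0.989), Skap1, an adaptor of T cell receptor signalling (0.988), and Hp1bp3 (0.987). Slfn8 was most like Oas1b, an interferon-induced gene (0.976), Mkl2 (0.972) and Rnf123 (0.971), and Slfn9 was most like Gbp10, an interferon-induced GTPase (0.961), P2rx7, a receptor for extracellular ATP (0.960), and Alms1 (0.957). Slfn3 was most like Glrx, a glutaredoxin (0.964), Fam53c (0.962) and Prss16 (0.958). Within the family the highest correlation was 0.981, between Slfn2 and Slfn5, and the lowest was -0.813, between Slfn3 and Slfn5. Slfn8 and Slfn9, next to each other on the chromosome, correlated at 0.0634. The other entries named for the family, Slfn14 at 0 to 0.024 nRPKM and the more distant Slfnl1 on chromosome 4 at 0 to 0.206 nRPKM, were too low to test.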

How the data were processed

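RNA of 18 libraries from cultured splenic CD4 T cells was sequenced by the authors from libraries made with an RNA kit that does not mark strand, per the labels' protocols. The submitters' processing notes name GSNAP and the build GRCm38. The authors deposited 1 table of nRPKM, a normalized RPKM. How nRPKM was scaled between libraries, and how reads that match several genes were counted, is not given in the sources used here.

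Columns were tied to samples by name, and no 2 libraries held identical values. Values were tested as log2(nRPKM + 1) with limma 3.58.1 (R 4.3.3), so fold changes of low genes are understated. The fit covered 13075 of 36528 entries with nRPKM of at least 1 in at least 3 libraries, with 6 group means, an empirical Bayes trend, 12 residual degrees of freedom and 12 contrasts. Benjamini-Hochberg adjustment ran over all 13075 genes. The procedure was tested on simulated data. The deposited nRPKM values were whole multiples of a per-library step for microRNA entries (tolerance 0.1 read), which gave the depth; counting error only is covered by it. Of the entries, 6 had no symbol and 27 a symbol turned into a date. Positions and promoters came from RefSeq (GRCm38.p6), where all 7 members matched, and transcripts from GENCODE.

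The text names the 7 members, other entries whose symbol begins with Slfn, the 3 genes most correlated with each tested member, and up to 4 members of each pathway list with the smallest adjusted p. A gene that this rule would name is not reported here. The members and the gene lists were chosen with earlier results of these data known. Alternatives were other pseudocounts, no filter, other scalings, no trend, a fit to only the groups compared, a nuclear RNA or B cell score as covariate, and leaving out each library. Figures were drawn with matplotlib 3.10.9.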

Additional observations from a re-analysis of the deposited data

Results flagged for a closer look

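The effect of anti-Ox40 differed between bead doses for Slfn1 and Slfn3, by limma's interaction test with Benjamini-Hochberg adjustment. For Slfn1 the antibody difference at high beads minus that without beads was -0.66 on the log2(nRPKM + 1) scale (adjusted p = 0.0159), and that at high beads minus that at low beads was -0.60 (adjusted p = 0.047). For Slfn3 the antibody difference at high beads minus that without beads was -0.29 (adjusted p = 0.023). The share of all tested genes called was 11.1% for high with no beads and 3.17% for high with low beads. The Slfn1 value between high and no beads passed the threshold under every alternative run, whereas that between high and low beads lost its call under 12 of 21 alternatives and the Slfn3 value under 4 of 21.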

How the results depend on the processing

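Of 1188 values of single members under alternatives, 1117 kept their direction and side of the threshold, 36 lost a call, 22 gained one and 13, none of them called, changed sign. Leaving out 1 library at a time gave 0 to 1 called members for the antibody at low beads, 3 to 5 at high beads, and 0 to 1, 0 to 3 and 1 to 4 for the interactions of low with no, high with low and high with no beads. At low beads the antibody gave 1 called member with libraries rescaled to the same sum and 1 with quantile normalization. The interaction of high with low beads gave 0 with no filter, 0 with no trend and 0 when only the groups compared were fitted, but 2 with the same sum, 2 with quantile normalization and 2 with the nuclear RNA covariate. That of high with no beads gave 4 when only the groups compared were fitted. The cause was not tested.

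For the antibody at low beads, Slfn9 was at 0.023 with the nuclear RNA covariate and at -0.085 to 0.017 with libraries left out, and Slfn2 at -0.115 to 0.009 with libraries left out. With the nuclear RNA covariate, Slfn9 was at 0.131 from low to high beads in control Ig. From no to low beads under anti-Ox40, Slfn8 was at -0.054 (same sum), -0.025 (quantile) and -0.009 to 0.165 (libraries left out). In the interaction of low with no beads, Slfn2 was at -0.015 (same sum), -0.070 (quantile), -0.079 (nuclear RNA covariate) and -0.010 to 0.114 (libraries left out), and Slfn1 at -0.105 to 0.012 (libraries left out). In that of high with low beads, Slfn8 was at -0.172 to 0.049 (libraries left out).

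Rescaling to the same sum moved the median of all genes at high against no beads to -0.22 under either antibody. No paired analysis was possible because the labels give no replicate numbers shared between groups. Depth limits Slfn4, at 9 to 63 reads a library, and shared sequence limits Slfn8 and Slfn9.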
